A study of Mus musculus with 26 samples.

Results

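The genes described here are 10 members of the Notch pathway that act in blood vessels or answer Notch there, taken by gene name from the 54532 genes of both deposited tables. They are the receptors Notch1 and Notch4, the ligands Dll1, Dll4, Jag1 and Jag2, and the target genes Hes1, Hey1, Hey2 and Heyl. All 10 were found, and all 10 passed the filter on low values in both comparisons. Whole mouse embryos at embryonic day 9.5 were measured by RNA sequencing, with 26 embryos in 4 groups. In the first table, 6 embryos with global deletion of Traf7 by E2a-Cre (Traf7 GLOko) were set against 6 wild-type embryos (WT). In the second, 7 Traf7 fl/fl;Tie2-Cre embryos (Traf7 ECko) were set against 7 Traf7 fl/+;Tie2-Cre embryos (Traf7 EChet), which carry the same Cre and 1 floxed allele. Tie2-Cre acts in endothelial cells and in blood cells derived from them, so all other cells of ECko embryos keep Traf7 on at least 1 allele (fl/- parents were used as well as fl/fl), and no embryo without Cre served as a control there. The mice were of C57BL/6 background, and embryos were freed from the yolk sac before RNA was extracted. TRAF7 is a ubiquitin ligase of the TRAF family, and KLF2, whose gene is used as a reference below, is a transcription factor induced by blood flow.

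Notch signaling passes between touching cells. A DLL or JAG ligand on one cell binds a NOTCH receptor on its neighbor, gamma-secretase frees the intracellular domain of the receptor, and this domain joins RBPJ and MAML proteins on DNA to turn on target genes. HES and HEY proteins, encoded by such target genes, are basic helix-loop-helix repressors. In the embryo, NOTCH1 and NOTCH4 with DLL4 act in arterial identity and vessel sprouting, JAG1 signals between endothelium and smooth muscle, HEY1 and HEY2 act in arteries and the heart, and HEYL is also made outside endothelium, for example in vascular smooth muscle and the nervous system. HES1 and DLL1 work in many tissues, somites and the neural tube among them, so that a whole embryo shows the sum over all of these cells.

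Promoters were searched for the word read by RBPJ, as a description of sequence. RefSeq promoter entries on GRCm38.p6, each of 250 bases before and 50 bases after a gene start, were given for 7 of the 10 genes. For Hes1, Hey1 and Heyl none was used. Among the 10 genes, the target gene that fell (Heyl) therefore could not be compared by sequence with those that did not. The word TGGGAA, the core that RBPJ binds, or its reverse complement TTCCCA, stands in 25.6% of all 32851 promoters of this length. Among the 7 genes, only the Hey2 promoter held it (chr10:30842734-30843033, minus strand), with 2 matches. Outside the 10 genes, the promoters of Hes5 (chr4:154960673-154960972, plus strand), a HES-family repressor of neural progenitors, and Lfng (chr5:140607091-140607390, plus strand), which adds sugars to NOTCH receptors, also held 2 matches each. These 3 were picked with the outcome known, as Hes5 and Lfng fell in GLOko embryos and Hey2 did not pass the test (values below). They are printed with matches in capitals on either strand.
Hey2: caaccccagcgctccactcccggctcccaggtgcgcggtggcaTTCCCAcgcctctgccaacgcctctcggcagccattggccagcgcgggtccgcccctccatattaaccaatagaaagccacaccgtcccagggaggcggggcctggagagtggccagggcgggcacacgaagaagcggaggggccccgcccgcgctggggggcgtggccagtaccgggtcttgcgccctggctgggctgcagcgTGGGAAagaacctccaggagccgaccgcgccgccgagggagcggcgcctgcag
Hes5: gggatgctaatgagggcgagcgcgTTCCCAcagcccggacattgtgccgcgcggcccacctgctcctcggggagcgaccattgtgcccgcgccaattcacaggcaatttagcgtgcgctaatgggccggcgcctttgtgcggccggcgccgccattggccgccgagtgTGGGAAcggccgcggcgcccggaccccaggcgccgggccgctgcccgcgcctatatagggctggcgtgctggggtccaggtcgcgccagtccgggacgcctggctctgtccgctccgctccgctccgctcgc
Lfng: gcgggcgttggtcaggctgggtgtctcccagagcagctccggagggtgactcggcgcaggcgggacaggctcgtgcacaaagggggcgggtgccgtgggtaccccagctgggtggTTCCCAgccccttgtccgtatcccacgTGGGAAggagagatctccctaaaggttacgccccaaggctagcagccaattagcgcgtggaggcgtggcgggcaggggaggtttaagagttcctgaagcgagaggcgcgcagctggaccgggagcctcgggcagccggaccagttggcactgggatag
Counted from the gene start, the first match began at -207 in Hey2, -226 in Hes5 and -135 in Lfng. No match was found in the promoter window of Nrarp, a feedback inhibitor of Notch that also fell. The promoters of Notch2, Notch3 and Klf2, looked at as well, held none either. The matches are a description of these letters and were not tested as binding sites.

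Across groups the order of levels was similar. Values are FPKM (read fragments relative to the length of the gene and the size of the library), a unit that can be compared between genes. Hes1 was first in every group, with 22.7 ± 3.32 in WT, 25.7 ± 4.16 in GLOko, 20.8 ± 1.77 in EChet and 24.7 ± 3.70 in ECko (mean and SD over 6, 6, 7 and 7 embryos). Hey1 came second in all 4 groups, at 11.9 ± 0.921 in WT and 11.7 ± 0.677 in EChet. In WT embryos, Hes1, Hey1 and the 2 ligands Dll1 (7.91 ± 1.49) and Jag1 (7.79 ± 1.075) stood in this order, and only Dll1 and Jag1 overlapped between embryos. The other 6 genes, from Jag2 (3.63 ± 0.902) and Notch1 (3.55 ± 0.657) down to Dll4 (2.46 ± 0.734), each overlapped with the next in order. Heyl held position 7 in WT, 8 in EChet and 9 in ECko, and position 10 of 10 in GLOko embryos. The 2 tables were not normalized together, so that levels of WT and EChet embryos are given side by side and were not tested against each other.

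**Figure D1:**
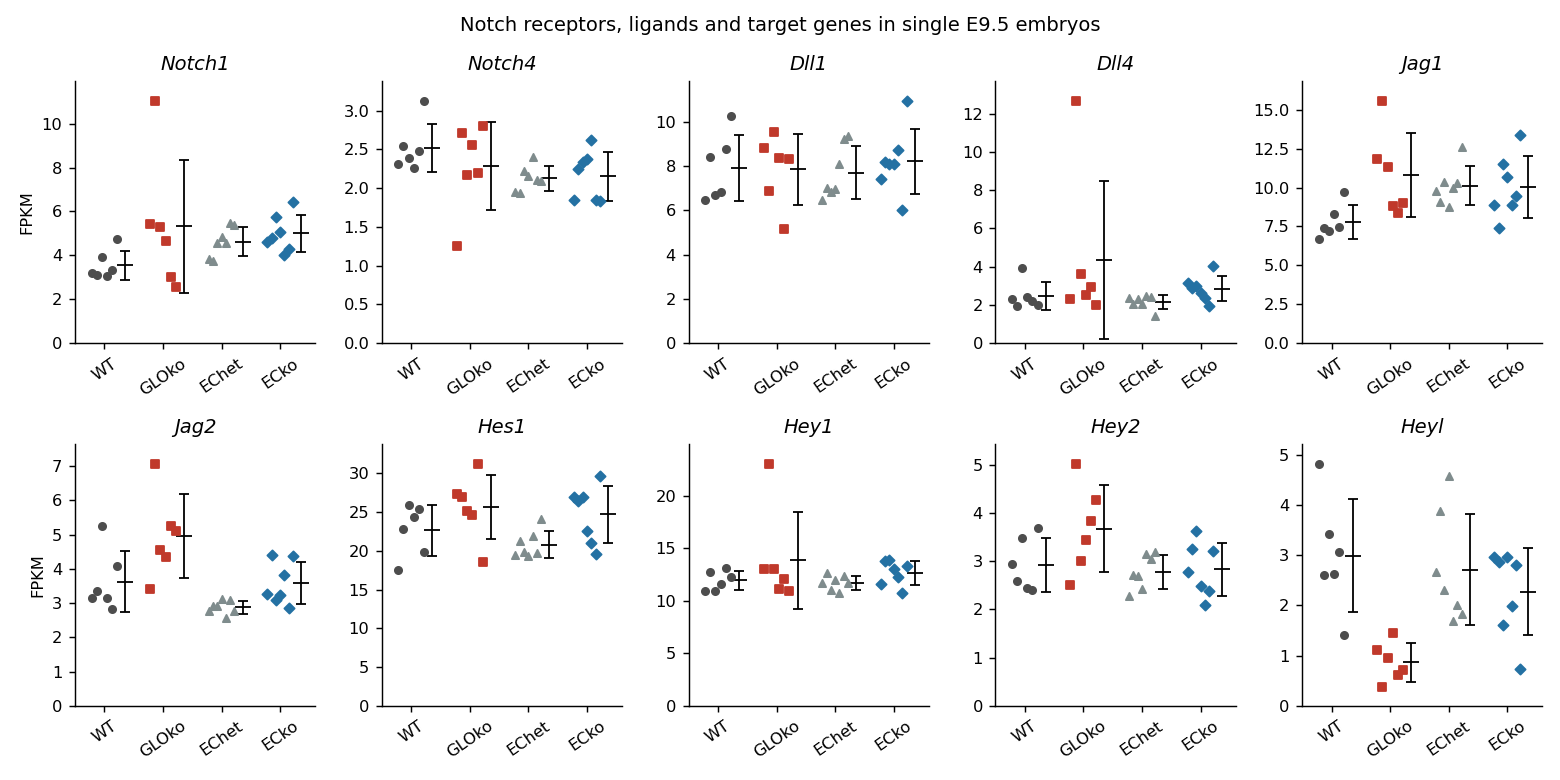
FPKM (vertical axis, linear, from 0) of the 10 genes in each of 26 embryos, by group (horizontal axis). Each point is 1 embryo, and the bar to its right gives mean and SD. In the Heyl panel the GLOko embryos lie at 0.372 to 1.46 FPKM and the WT embryos at 1.41 to 4.82.

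Some facts of the libraries bear on these values. Each library held between 16662293 and 25364652 reads in genes, and all 10 genes rested on at least 36 reads in every embryo. Traf7 was at 19.4, 20.6, 20.1, 11.1, 19.7 and 18.9 FPKM in WT embryos 1 to 6 and at 1.75 to 3.12 in GLOko embryos (13.2% of WT), in values that cover the whole gene, exons outside the loxP sites included. WT 4 had the lowest level of its group. In ECko embryos Traf7 was at 84.6% of EChet, with a log2 fold change of -0.24 and an adjusted p of 0.203 by limma, and cells outside the Tie2 lineage keep the gene. At equal depth, GLOko 1, GLOko 6 and GLOko 2 had the fewest detected genes of their group (16831, 17007 and 18618, against 19263 to 19690 in WT). Transcripts of 10 cardiomyocyte markers were far lower in GLOko 1, WT 4, ECko 3 and ECko 4, with mean log2 differences from the control group of -4.99, -3.29, -4.17 and -3.51, than in the other 22 embryos, which lay between -0.37 and 2.14. Endothelial markers were detected in every group. Pecam1 was at 6.88 ± 1.66 FPKM in WT, 12.1 ± 6.26 in GLOko, 6.17 ± 0.190 in EChet and 7.25 ± 1.12 in ECko. The labels give no litter, sex or batch, and it is not stated that numbered embryos came from separate litters, so p values measure the spread between these embryos.

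Global deletion of Traf7 was examined first, to see which of these genes differed when it was deleted in all cells. Heyl was lower, at 29.1% of its WT mean, and the other 9 genes did not pass the test. Of the 10, 1 was called changed (adjusted p of 0.05 or less by limma with Benjamini-Hochberg adjustment over all genes), beside 10.4% of the 17573 genes tested, so that the count lies near the share of the whole table. None of the 10 was called higher, beside 5.42% of all genes, and 1 was called lower, beside 5.01%. Calls with a change of 1 or more on the log2 scale were 1 of the 10 and 1.96% of all genes. The median log2 fold change was 0.26 over the 10 genes and 0.01 over all genes tested, and 8 of the 10 had a positive sign, of which Dll1 at 0.0026 changed sign with the scaling.

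Heyl (ENSMUSG00000032744), which encodes a HEY-family repressor, lies on chromosome 4 from 123233556 to 123249875 on the plus strand of GRCm38. In WT embryos 1 to 6 it was at 4.82, 2.602, 3.42, 2.62, 3.07 and 1.41 FPKM. In GLOko embryos 1 to 6 it was at 1.11, 0.372, 0.96, 1.46, 0.615 and 0.711 FPKM. The groups overlapped by 1 embryo on each side, as GLOko 4 lay just above WT 6, and the other 5 GLOko embryos were below all WT embryos. The log2 fold change was -1.67 (SE 0.31, 95% confidence interval -2.33 to -0.998, adjusted p = 0.0102 by limma), and it ranked 194 of 17573 genes by p. A two-sided exact permutation test over the embryos gave p = 0.00433, where 0.00216 is the smallest that 6 against 6 can give. These values rested on 36 to 144 reads in GLOko and 121 to 545 reads in WT embryos. Heyl was called lower in all 26 alternative settings run, with a log2 fold change between -1.86 and -1.05 and adjusted p between 0.00525 and 0.0403.

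Some cell type markers differed in GLOko embryos as well. In the list of 7 neural progenitor markers, 4 fell in GLOko embryos, beside 5.01% of all genes called lower. Nes, an intermediate filament of neural stem cells, had a log2 fold change of -0.70, and Neurog2, a proneural factor, -1.10. Sox1 was at -0.65, near the threshold (adjusted p = 0.0495 by limma), and Hes5, which is also a Notch target, at -1.01. These marker calls were not followed gene by gene through the alternative settings. The mean log2 level of this list, as a difference from the WT mean, lay between -0.20 and 0.26 in WT embryos. In GLOko embryos 1 to 6 it was at -0.46, -0.52, -0.41, -0.67, -1.26 and -1.21, without overlap with WT. Heyl was lowest in GLOko 2 and highest in GLOko 4. Mural cell and smooth muscle markers, with 6 of 7 tested, held no called gene, and their mean ranged from -1.37 to 0.88 in GLOko and from -0.43 to 0.18 in WT. Presomitic markers ranged from -1.97 to 0.42 and from -0.76 to 1.06, again with no gene called. The part of neural cells in the Heyl difference was not tested. In bulk RNA of whole embryos, fewer cells of a type and less RNA per cell cannot be told apart.

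The other 3 target genes did not pass the test. Hey1, which acts with Hey2 in arteries and endocardium, was at 13.9 ± 4.59 FPKM in GLOko and 11.9 ± 0.921 in WT (log2 fold change 0.19, adjusted p = 0.487 by limma). GLOko embryos 1 to 6 gave 13.1, 23.1, 12.99, 11.1, 12.05 and 10.9 FPKM, so that a single embryo, GLOko 2, set the mean apart, and the log2 fold change without it was 0.03. Hey2 was at 3.68 ± 0.902 and 2.92 ± 0.552 FPKM (log2 fold change 0.33, adjusted p = 0.246), and 3 of 6 GLOko embryos lay above all WT embryos. With both embryos of low cardiomyocyte markers left out (GLOko 1 and WT 4), the log2 fold change of Hey2 was 0.38 (adjusted p = 0.212 by limma). Hes1 was at 25.7 ± 4.16 and 22.7 ± 3.32 FPKM (0.20, adjusted p = 0.353 by limma). The intervals of log2 fold change reached from -0.17 to 0.54 for Hey1, -0.05 to 0.71 for Hey2 and -0.09 to 0.48 for Hes1.

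With Heyl lower and its 2 relatives not called, the share of Heyl among the 3 Hey mRNAs was computed for each embryo, as a description. Heyl made up 16.6% ± 5.80 of their summed FPKM in WT embryos and 5.16% ± 2.67 in GLOko embryos (6 each), and the ranges of 8.08% to 25.8% and 1.31% to 9.12% overlapped. The sum itself was 17.9 ± 0.767 FPKM in WT and 18.4 ± 4.93 in GLOko. In the Tie2-Cre groups the share of Heyl was 15.4% ± 5.10 in EChet and 12.9% ± 4.97 in ECko (7 each), and the sum was 17.2 ± 1.40 and 17.8 ± 1.46 FPKM.

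Among the ligands, Jag1 was nearest to a call. WT embryos 1 to 6 were at 6.68, 7.38, 7.23, 8.31, 7.43 and 9.703 FPKM, and GLOko embryos 1 to 6 at 11.8, 15.6, 11.3, 8.83, 8.35 and 9.03. All 6 GLOko embryos were above the WT mean and 3 above every WT embryo. The log2 fold change of 0.47 (SE 0.16) had an adjusted p of 0.0698 by limma, and the two-sided exact permutation p was 0.0130. Jag1 passed the threshold in 1 of 26 alternative settings, without GLOko 5 (0.53, adjusted p = 0.0473 by limma). Jag2 was at 4.95 ± 1.23 FPKM in GLOko and 3.63 ± 0.902 in WT (log2 fold change 0.46, adjusted p = 0.127 by limma). Dll1, the ligand of somites and neural tube, gave 7.85 ± 1.59 and 7.91 ± 1.49 FPKM, with a log2 fold change of 0.00 and an interval of -0.34 to 0.34. At an unadjusted p of 0.05 or less by limma stood 3 of the 10 genes, namely Heyl, Jag1 and Jag2, beside 28.3% of all genes tested.

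Dll4, the endothelial ligand of arteries and tip cells, had the widest spread of the 10 among GLOko embryos, with an SD of 0.975 on the log2 scale. In GLOko embryos 1 to 6 it was at 2.32, 12.7, 3.64, 2.499, 2.95 and 1.99 FPKM, against 2.33, 1.94, 3.91, 2.402, 2.23 and 1.97 in WT embryos 1 to 6. GLOko 2 alone lay above all WT embryos. The log2 fold change was 0.52 (SE 0.38, adjusted p = 0.390 by limma), and it was 0.15 without GLOko 2. With the mean of 12 endothelial markers as a covariate it was 0.02. In GLOko 2 that mean was 0.90 above the WT mean on the log2 scale, against -0.18 to 0.25 in the other 5 GLOko embryos and -0.16 to 0.15 in WT. After that mean was subtracted, Dll4 in GLOko 2 was 1.52 above the WT mean. The part of endothelial cell number in the Dll4 values was not tested.

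The receptors did not pass the test. Notch1 was at 5.32 ± 3.03 FPKM in GLOko and 3.55 ± 0.657 in WT (log2 fold change 0.45, adjusted p = 0.331 by limma), and 0.20 without GLOko 2, which had 11.03 FPKM. Notch4, an endothelial receptor, was at 2.28 ± 0.568 and 2.52 ± 0.315 FPKM (-0.15, adjusted p = 0.628 by limma). GLOko 1 had 1.25 FPKM of Notch4 and the other GLOko embryos 2.17 to 2.80. Without GLOko 1 the log2 fold change of Notch4 was 0.0067. Notch4 and Dll1 share chromosome 17 with Traf7, at 10.06 and 9.15 Mb from it.

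GLOko 2 carried the highest level of its group for 6 of the 10 genes (Notch1, Dll4, Jag1, Jag2, Hey1 and Hey2) and the lowest for Heyl. In the heat map of deviations it is the column of strongest color. It also had the highest endothelial marker mean, with Kdr at 25.3 FPKM and Pecam1 at 24.7, where the other GLOko embryos had 10.7 to 14.3 and 8.25 to 11.04. This embryo was singled out after its values were seen, and the part of endothelial cell number in its Notch levels was not tested.

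**Figure D2:**
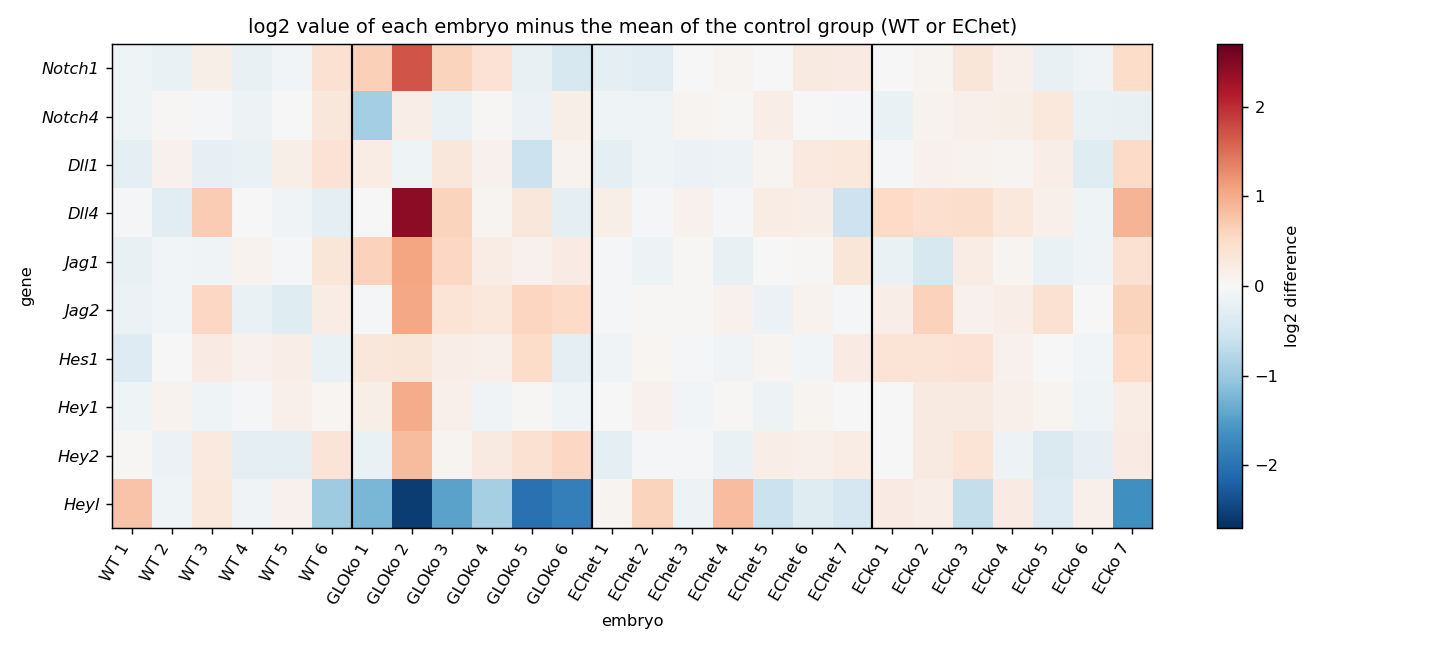
Heat map of the 10 genes (rows) in 26 embryos (columns, with lines between groups), where color gives the log2 value minus the mean of the control group of the same table, WT or EChet. Heyl is below the control mean in all 6 GLOko embryos, and GLOko 2 is high in Dll4 and low in Heyl.

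In the cross with Tie2-Cre, which is active in endothelial and blood cells, none of the 10 genes was called changed. Traf7 itself did not pass the test in these whole embryos, at 84.6% of EChet, and how far it was deleted within endothelial cells was not tested. Of the 17514 genes tested, 17 (0.0971%) were called by limma, 10 higher (0.0571%) and 7 lower (0.04%). At an unadjusted p of 0.05 or less stood 3 of the 10 genes, Jag2, Hes1 and Dll4, each higher in ECko, beside 14.5% of all genes. With voom on recovered reads, too, 0 of the 10 were called, and the same held without ECko 3 and ECko 4, the ECko embryos of low cardiomyocyte markers. The median log2 fold change was 0.10 over the 10 genes and 0.00 over all. As a reference in the same embryos, Klf2 fell with a log2 fold change of -1.34 (adjusted p = 0.00910 by limma), with 3.40 to 5.37 FPKM in EChet and 0.907 to 2.40 in ECko embryos, without overlap.

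Jag2, a ligand of endothelium and many epithelia, had the smallest p of the 10. ECko embryos lay between 2.86 and 4.404 FPKM with a median of 3.27, and EChet embryos lay between 2.57 and 3.11 FPKM with a median of 2.92. Of the 7 ECko embryos, 5 were above every EChet embryo. The log2 fold change was 0.30 (SE 0.10, adjusted p = 0.219 by limma), with a two-sided exact permutation p of 0.00758 where 0.000583 is the smallest possible. Dll4 was between 1.95 and 4.06 FPKM with a median of 2.89 in ECko and between 1.42 and 2.45 FPKM with a median of 2.32 in EChet embryos. Its log2 fold change was 0.39 (SE 0.15, adjusted p = 0.262 by limma), and 0.20 with the endothelial marker mean as a covariate. That marker mean ranged from -0.04 to 0.21 in ECko and -0.19 to 0.10 in EChet embryos, and its part in the Dll4 values was not tested further. Hes1 was at 24.7 ± 3.70 FPKM in ECko and 20.8 ± 1.77 in EChet (0.24, adjusted p = 0.247 by limma), with 4 of 7 ECko embryos above all EChet embryos.

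Heyl did not pass the test in this cross. EChet embryos 1 to 7 were at 2.67, 3.89, 2.31, 4.57, 1.68, 2.02 and 1.83 FPKM, and ECko embryos 1 to 7 at 2.96, 2.87, 1.60, 2.97, 1.99, 2.81 and 0.729. ECko 7, the lowest, and ECko 3 lay below every EChet embryo, and the other ECko embryos lay within the EChet range. The log2 fold change was -0.27 (SE 0.30, 95% confidence interval -0.91 to 0.37, adjusted p = 0.724 by limma), and -0.04 without ECko 7. This embryo also had the highest Notch1, Dll1, Dll4, Jag1 and Hes1 of its group, with Dll4 at 4.06 FPKM and Notch1 at 6.45. Its endothelial marker mean was 0.10 on the log2 scale. The neural progenitor mean was -0.55, the lowest of the ECko group, and the presomitic mean 1.32, the highest. ECko 6 had the lowest presomitic mean, -2.63, and the lowest Dll1, Dll4, Hes1, Hey1 and Jag2 of the group. The part of these tissues in the values was not tested. Log2 fold changes of the 6 genes besides Jag2, Dll4, Hes1 and Heyl lay between -0.02 (Jag1) and 0.11 (Hey1 and Notch1). Their adjusted p was 0.439 or more by limma. The interval of Hey1 reached from -0.02 to 0.24 and that of Hey2 from -0.24 to 0.27.

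**Figure D3:**
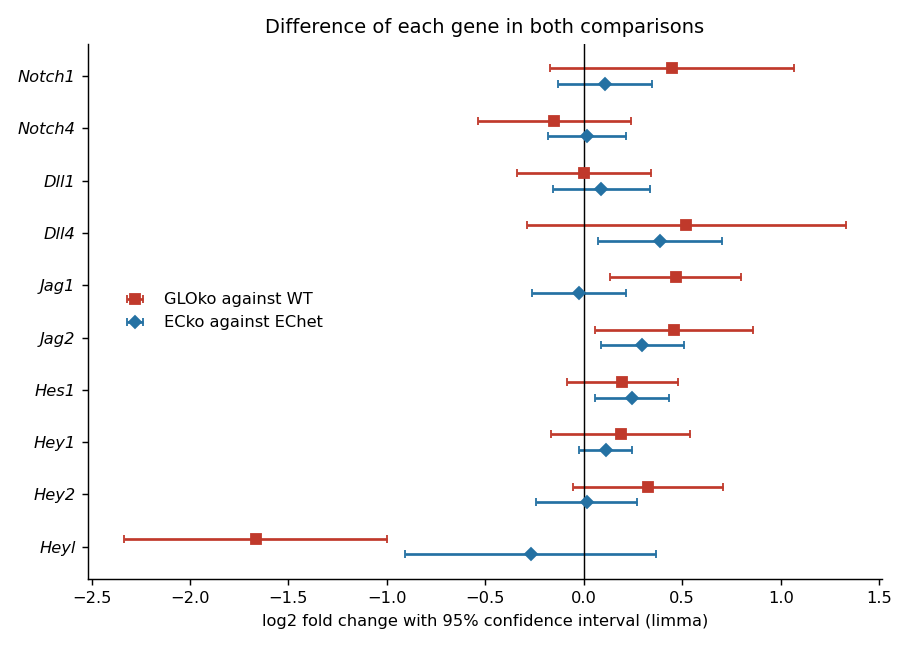
Log2 fold change (horizontal axis) of each gene, with 95% confidence interval from limma, for GLOko against WT (squares) and ECko against EChet (diamonds). The interval of Heyl lies wholly below 0 in the first comparison, from -2.33 to -0.998, and spans 0 in the second.

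Whether the effects differed between both crosses was tested directly, as the GLOko difference minus the ECko difference in a limma fit over 26 embryos. The control groups were unlike, as WT embryos were intact and EChet embryos had already lost a copy of Traf7 in Tie2-Cre cells. The difference of effects is thus not a comparison of global with endothelial loss alone. Of 17560 genes, 344 (1.96%) were called, and none of the 10 was among them. Without GLOko 1, WT 4, ECko 3 and ECko 4, the embryos of low cardiomyocyte markers, 9 genes were called and again none of the 10. For Heyl the difference of effects was -1.39 (95% confidence interval -2.31 to -0.47, unadjusted p = 0.00466 and adjusted p = 0.0828 by limma), so that a call in one cross and not in the other is not shown to be a difference between crosses. Over 14 alternative settings its adjusted p was between 0.0617 and 0.216. Jag1, at 0.47 in the first cross and -0.02 in the second, had a difference of 0.50 (adjusted p = 0.142). Of the 10, these 2 had an unadjusted p of 0.05 or less. By comparison, the difference was -2.56 for Klf2 (adjusted p = 0.0182 by limma).

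Of 52 other genes of the Notch pathway, 10 were called in GLOko embryos, 5 higher and 5 lower, beside 10.4% of all genes tested. In ECko embryos 0 were called by limma, with 4 of the 52 at an unadjusted p of 0.05 or less, beside 14.5% of all genes, and 0 called by voom on recovered reads. The list was written with earlier results of these data known.

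In the receptors and ligands outside the 10, Notch2 and Notch3 rose in GLOko embryos. Notch3, the receptor of vascular smooth muscle and also of neural progenitors, was at 12.2, 11.2, 15.2, 12.4, 12.9 and 14.3 FPKM in WT embryos 1 to 6 and at 16.9, 23.8, 24.7, 20.3, 21.7 and 15.01 in GLOko embryos 1 to 6. All but 1 of the 6 GLOko embryos were above every WT embryo, and the log2 fold change was 0.65 (SE 0.13, adjusted p = 0.0130 by limma). Notch2, a receptor of many tissues, was at 6.47 ± 1.60 FPKM in GLOko and 4.33 ± 0.452 in WT, with a log2 fold change of 0.57. Dll3, Dlk1, Dlk2 and Dner did not pass the test.

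Among target genes, 3 of 7 fell and none rose, beside 5.01% of all genes called lower and 5.42% called higher. Hes5 was at 13.5, 16.6, 18.8, 13.2, 12.8 and 14.8 FPKM in WT embryos 1 to 6 and at 5.86, 13.6, 9.48, 7.898, 5.06 and 4.54 in GLOko embryos 1 to 6. GLOko 2 lay among the WT embryos and the other 5 below them (log2 fold change -1.01, SE 0.24, adjusted p = 0.0206 by limma). Nrarp was at 8.25, 10.05, 12.7, 9.15, 11.7 and 13.8 FPKM in WT and 5.21, 5.03, 8.58, 8.78, 7.62 and 5.07 in GLOko embryos 1 to 6, with 4 GLOko embryos below all WT embryos (-0.69, adjusted p = 0.0289 by limma). Ccnd1, the G1 cyclin D1, was at 43.3 FPKM in GLOko and 67.6 in WT (-0.64, adjusted p = 0.0114 by limma). Hes7, Efnb2, Myc and Snai2 did not pass the test, and Efnb2, the arterial ephrin, was at 22.8 FPKM in GLOko and 21.0 in WT.

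Lfng, the only one of 15 processing and glycosylation genes called, was at 8.62 to 16.5 FPKM in GLOko and 15.7 to 21.1 in WT embryos (-0.59, adjusted p = 0.0219 by limma). In the group of ligand activation and receptor turnover, Mib1, the ubiquitin ligase that primes ligands, rose by 0.40 (adjusted p = 0.0452 by limma). The other 11 genes of that group were not called. In the nuclear group, the co-activators Ep300 and Maml2 rose by 0.47 and 0.66, the corepressor Ctbp1 fell by 0.35, and Rbpj itself was at 13.7 FPKM in GLOko and 10.5 in WT (0.36, adjusted p = 0.148 by limma). These counts depend on the fit. With detected genes as a covariate 2 of the 52 were called, without WT 2 there were 3, without WT 5 or without GLOko 1 and WT 4 together there were 4, without WT 4 or WT 6 there were 6, and without GLOko 2 there were 13.

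In the cross with Tie2-Cre the same genes gave Notch3 0.17, Hes5 -0.03, Nrarp 0.05 and Lfng -0.05 on the log2 scale, none of them called. The difference of effects was called for Nrarp (-0.74, adjusted p = 0.0497 by limma) and for Maml2 (adjusted p = 0.0480), but in 4 and 8 of 14 alternative settings only (adjusted p up to 0.234 and 0.128), and not for Hes5 (adjusted p = 0.0731), Lfng (0.0559) or Notch3 (0.0783). The 4 genes at an unadjusted p of 0.05 or less in ECko embryos were Mib2, Dtx1, Neurl1a and Dtx3. Mib2, a ubiquitin ligase of ligands, was at 4.48 FPKM in ECko and 3.39 in EChet without overlap (log2 fold change 0.40, adjusted p = 0.110 by limma). Genes with no overlap in either direction made up 0.514% of all genes tested in this cross.

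**Figure D4:**
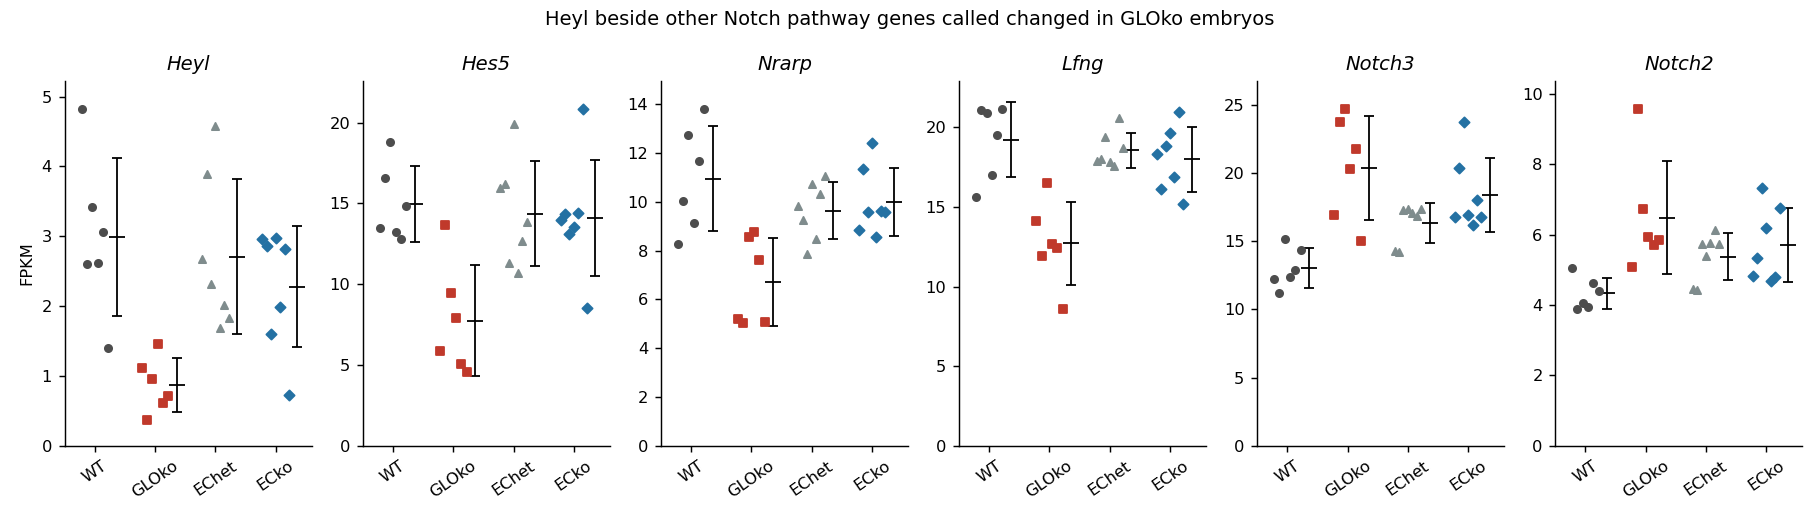
FPKM (vertical axis, linear, from 0) of Heyl, Hes5, Nrarp, Lfng, Notch3 and Notch2 in each embryo by group (horizontal axis), with mean and SD to the right of each group. Means of Heyl, Hes5, Nrarp and Lfng are lower and those of Notch3 and Notch2 higher in GLOko than in WT embryos. GLOko and WT embryos overlap for all of these but Notch2, and ECko and EChet embryos overlap for all 6.

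Vessel markers moved in both directions in GLOko embryos. Of 12 endothelial markers, Kdr, the VEGF receptor that marks endothelium, rose by 0.76 and Eng by 0.46 on the log2 scale. The other endothelial markers were not called, Pecam1 at 0.74 (adjusted p = 0.0710 by limma), Erg at 0.37 and Cldn5 at -0.25 among them. The median log2 fold change of the 12 was 0.16. Of the 6 arterial markers, Gja4, the connexin 37 gene of arterial endothelium, fell with a log2 fold change of -1.21. It was at 5.75 to 8.48 FPKM in WT and 1.09 to 4.89 in GLOko embryos, without overlap. Nrp1 (0.54), Sox17 (0.28) and Unc5b (0.25) had a positive sign, Gja5 (-1.05) and Bmx (-0.03) a negative one, and none was called. The median log2 fold change of the 6 was 0.11. Genes with no overlap in either direction made up 8.72% of all genes tested in this comparison, genes called higher 5.42% and genes called lower 5.01%. Of the 4 venous markers, Nrp2 and Flt4 rose by 0.81 and 0.67, while Nr2f2 (-0.14) and Ephb4 (-0.20) were not called. In ECko embryos no gene of these lists was called by limma, and 4 of the 12 endothelial markers were at an unadjusted p of 0.05 or less, beside 14.5% of all genes tested.

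The genes whose profile was most like that of Heyl were sought over 26 embryos, by the root mean square difference of log2 values from the control mean of each table, among 11836 genes with a mean of at least 1 FPKM in both tables. Gprin1 was nearest, at 0.365, followed by Btbd17 at 0.456 and Slc25a29 at 0.463, where the median gene was at 1.01. All 3 fell in GLOko embryos, by 1.60, 1.37 and 1.67 on the log2 scale. The measure takes in both groups of each table, so that a shared fall in GLOko embryos counts toward it.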

How the data were processed

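The deposited tables hold FPKM values computed by the authors from reads aligned with STAR to mm10, per the labels. The study's software list names HISAT2 and featureCounts too, and which aligner made these values could not be settled. The STAR version and the gene annotation are not given in the sources used here. No value was pooled, and groups were taken from sample titles. The values were whole multiples of 1 read in 100% of cases below 1000 reads (tolerance 0.01 of a step), so read numbers were recovered. For testing, each library was scaled by a median-of-ratios factor from genes at a mean FPKM of 1 or more. A pseudocount of 0.1 was used, and genes below a mean of 0.1 were left out. Log2 values of each table were fitted with limma 3.58.1 in R 4.3.3 (trend and robust settings, two-sided), with Benjamini-Hochberg adjustment over all genes; a gene was called at an adjusted p of 0.05 or less. Fold changes are on the log2(FPKM + 0.1) scale, which understates changes of low genes. The steps were tested on simulated reads with a spread set alike for all genes. That is a check of the code and does not cover the spread between these embryos. Exact permutation tests, levels and figures used Python 3.11.15, SciPy 1.17.1 and matplotlib 3.10.9.

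Gene positions were those deposited with the FPKM values, and promoters came from RefSeq. Alternatives changed the pseudocount, the filter, the scaling, the weights, the covariates, the replicate block or the embryos used; limma-voom was run on recovered reads. Between pairs of libraries of a group, chi-square per gene was 5.28 to 157, so that no library was counted as a copy of another. The members and lists were chosen with earlier results of these data known. Named were the 10 genes, Traf7, Klf2, each other pathway gene called in either comparison, and at most 3 markers of smallest p per list. The 3 profiles nearest to a called member were named too. Pecam1, Sox1, Hes5 as a marker, Mib2, Rbpj, Efnb2 and pathway or vessel genes given as not called were named after their values were seen.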

Additional observations from a re-analysis of the deposited data

Results flagged for a closer look

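In 40 sets, each of 1 gene in 1 group, the embryo farthest from the others was compared with Dixon's critical value, and 6 sets passed it, where chance passes about 1 in 20. Dll4 stood apart in 3 groups. GLOko 2 had 12.7 FPKM, with the next at 3.64. WT 3 had 3.91, with the next at 2.40. EChet 7 had 1.42, with the next at 2.03. Hey1 was at 23.1 FPKM in GLOko 2, where the next embryo had 13.1. Notch4 was at 3.12 FPKM in WT 6, above the next at 2.55, and at 1.25 in GLOko 1, below the next at 2.17. GLOko 1 is also the embryo with the fewest detected genes and the lowest cardiomyocyte markers of its group, and GLOko 2 the one with the highest endothelial markers. The part of these in the values was not tested. Heyl had no embryo past the critical value in any group.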

How the results depend on the processing

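Heyl remained lower and called in GLOko embryos under all 26 alternatives, and no gene of the 10 was called in ECko embryos or in the difference of effects under any. Without 1 embryo at a time, the log2 fold change of Heyl in GLOko embryos was -1.86 to -1.48 (adjusted p 0.00525 to 0.0291 by limma), genes called numbered 731 to 2491 in GLOko and 3 to 51 in ECko embryos, the 10 genes gave 1 to 2 calls and 0 calls, and the 52 other pathway genes 3 to 13 and 0. Over these same settings Dll1 ranged from -0.057 to 0.12 and Notch4 from -0.21 to 0.0067 in GLOko, and in ECko embryos Hey2 ranged from -0.046 to 0.082, Jag1 from -0.098 to 0.043, and Notch4 from -0.031 to 0.050.

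Genes called in GLOko embryos numbered 1208 with no filter, 2799 with sample weights, 447 with detected genes as a covariate and 542 without GLOko 1 and WT 4, against 1833. Other pathway genes called fell from 10 to 2 with that covariate and to 4 without those 2 embryos. In ECko embryos 5 genes were called with no filter, 31 with weights, 8 with the detected-gene covariate, 0 with the endothelial covariate, 10 with voom and 11 without ECko 3 and ECko 4, against 17. In the difference of effects, against 344, there were 47 with no filter, 631 with a filter at 1, 963 with weights, 1131 with the endothelial covariate, 59 without GLOko 1 and WT 4, 79 without GLOko 1, GLOko 2 and GLOko 6, 600 without GLOko 2, and 9 without GLOko 1, WT 4, ECko 3 and ECko 4. The settings that leave out GLOko 2 alone, or ECko 3 and ECko 4, were chosen after seeing the data. The cause of these shifts was not tested.

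Values near 0 changed sign. Dll1 in GLOko embryos, at 0.0026, was -0.019 without factors, -0.022 with a fixed total, -0.059 with weights, -0.094 with the detected-gene covariate, -0.076 without GLOko 1 and WT 4, and -0.046 without GLOko 1, GLOko 2 and GLOko 6. In ECko embryos Hey2 was -0.052 with weights and -0.071 with the detected-gene covariate, Notch4 -0.0088 with that covariate and -0.061 with the endothelial one, and Jag1 0.088 with the latter, and without ECko 3 and ECko 4 Hey2 was -0.026 and Notch4 -0.036. In the difference of effects, Hes1 was 0.012 with weights and 0.038 without the 3 embryos, Hey1 -0.048 with weights, -0.075 without the 3 and -0.077 without GLOko 2, and Dll4 -0.13 with the endothelial covariate, -0.051 without the 3 and -0.23 without GLOko 2. Notch4 was 0.020 without the 4 embryos of low cardiomyocyte markers.

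Replicate numbers were not taken as pairs. Deviations of embryos with the same number correlated at -0.047 to 0.088 in the first table and -0.081 to 0.111 in the second, and 3 of 12 and 4 of 14 embryos correlated best with their own number. With the replicate block 1010 genes, 1 of the 10 and 4 of the 52 were called in GLOko embryos, and 0 genes in ECko embryos.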
